A study of Mus musculus with 12 samples.

Results

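The nuclear genes of mitochondrial respiratory complex I, the NADH:ubiquinone oxidoreductase that opens the electron transport chain, were followed in ventricular tissue of mice kept at low oxygen. Members were the genes of the deposited table whose mouse symbol begins with Ndufa, Ndufb, Ndufc, Ndufs or Ndufv and a number, and that are not pseudogenes. The table has 39210 genes, of which 40 carry such a symbol and 37 are members. The other 3, Ndufa11b, Ndufs6b and Ndufb4c, are pseudogene copies in the annotation used for names. Ndufb1 is not analysed here. Of the 37 members 36 passed the filter on low counts and were tested, and Ndufa4 did not.

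The groups were hypoxic males, normoxic males, hypoxic females and normoxic females, with 3 libraries each, 12 in all. All mice were of the C57BL/6 strain, and their age is not given in the sources used here. In the hypoxia chamber oxygen fell by 1% per day over 14 days to 7% and was then held there for 2 weeks, whereas normoxic mice breathed room air with 20.9% oxygen for 4 weeks. RNA came from frozen ventricles, in which the left and right sides are not told apart by the labels, and strand-specific mRNA libraries were sequenced. The labels do not state that replicate libraries stem from different mice, and the p-values therefore reflect the scatter among these 12 samples, part of which may be technical.

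Complex I is an L-shaped enzyme whose matrix arm takes electrons from NADH and passes them along iron-sulfur clusters to ubiquinone, and whose membrane arm pumps protons. The nuclear core subunits carry out the electron transfer, the mitochondrial genome encodes the core of the membrane arm (the ND subunits), and many accessory subunits surround and stabilise both. Heart muscle, which depends on oxidative phosphorylation for nearly all of its ATP, holds the enzyme in large amounts.

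Levels are given in CPM, counts scaled to a library size corrected by TMM, a method that assumes that most genes do not change. Each library held between 14915830 and 19397851 estimated counts. Every member tested had at least 268 estimated counts in each library, and apart from Ndufs4 and Ndufa4l2 at least 1987. Fold changes are log2 values of hypoxia over normoxia with their standard error, and a gene was called at a Benjamini-Hochberg adjusted p under 0.05 from edgeR's quasi-likelihood test over the 13960 genes tested.

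In the average of the male and female effects 18 of the 36 members fell and 1, Ndufa4l2, rose. Over all genes tested 27.9% were called in that comparison, 12.9% lower and 15.0% higher. The median log2 fold change of the members was -0.25, against -0.01 over all genes. The sign was negative for 34 of the 36 in males and in females alike, the exceptions being Ndufa4l2 and Ndufa11, but for 28 of 36 in the average when library totals replaced the TMM factors. Across all genes 37.9% were negative in both sexes. The changes were small: apart from Ndufa4l2 the fitted values ran from -0.56 for Ndufs4 to 0.08 for Ndufa11. In bulk tissue, fewer cells of a type and less RNA per cell cannot be told apart.

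The fall is relative to the other genes of the same library. The members' summed level was 12794, 11446 and 9849.8 CPM in the 3 hypoxic male libraries, against 14104, 13181 and 14924 CPM in normoxic males. In females it was 12724, 11301 and 10369.8 CPM in hypoxia, against 12908, 12713 and 14039.6 CPM in normoxia. Males did not overlap, and hypoxic female library 1 was level with normoxic female library 2. With library totals in place of TMM factors the median over all genes moved to 0.20 and that of the members to -0.049. Such a change shifts all genes of a library alike, so the distance of the medians was bound to stay nearly the same. It was -0.24 with TMM and -0.25 with library totals. On that scale 3 members were called lower (Ndufa12, Ndufa3 and Ndufs4) and 2 higher (Ndufa4l2 and Ndufa11). The shares of all genes called on that scale are not given here, so these counts have no background beside them. As a share of all estimated counts the tested members made up 1.24 ± 0.14% in hypoxic males and 1.29 ± 0.05% in normoxic males (SD, n = 3). In females the share was 1.21 ± 0.05% in hypoxia and 1.25 ± 0.02% in normoxia. The summed deposited TPM of the tested members was 20024 ± 2967 in hypoxic males and 18639 ± 1220 in normoxic males. In females it was 19184 ± 240.4 in hypoxia and 19255 ± 857 in normoxia. Gene by gene, the mean TPM of most members was higher in hypoxic than in normoxic males, opposite to the sign with TMM factors. In females the direction in TPM was mixed. As a share of the counts outside mitochondrially encoded genes, the members made up 1.55 ± 0.14% in hypoxic males and 1.80 ± 0.07% in normoxic males, and 1.55 ± 0.07% in hypoxic females and 1.68 ± 0.03% in normoxic females, gaps larger than the larger SD of each pair. In TPM and in shares of the whole total, hypoxia and normoxia thus differed by less than the larger SD of the pair. Mitochondrially encoded transcripts, which count toward those totals, took 15.8 to 23.1% of the counts in hypoxic males and 27.6 to 29.3% in normoxic males, and 21.5 to 23.02% in hypoxic females against 24.5 to 26.4% in normoxic females.

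**Figure D1:**
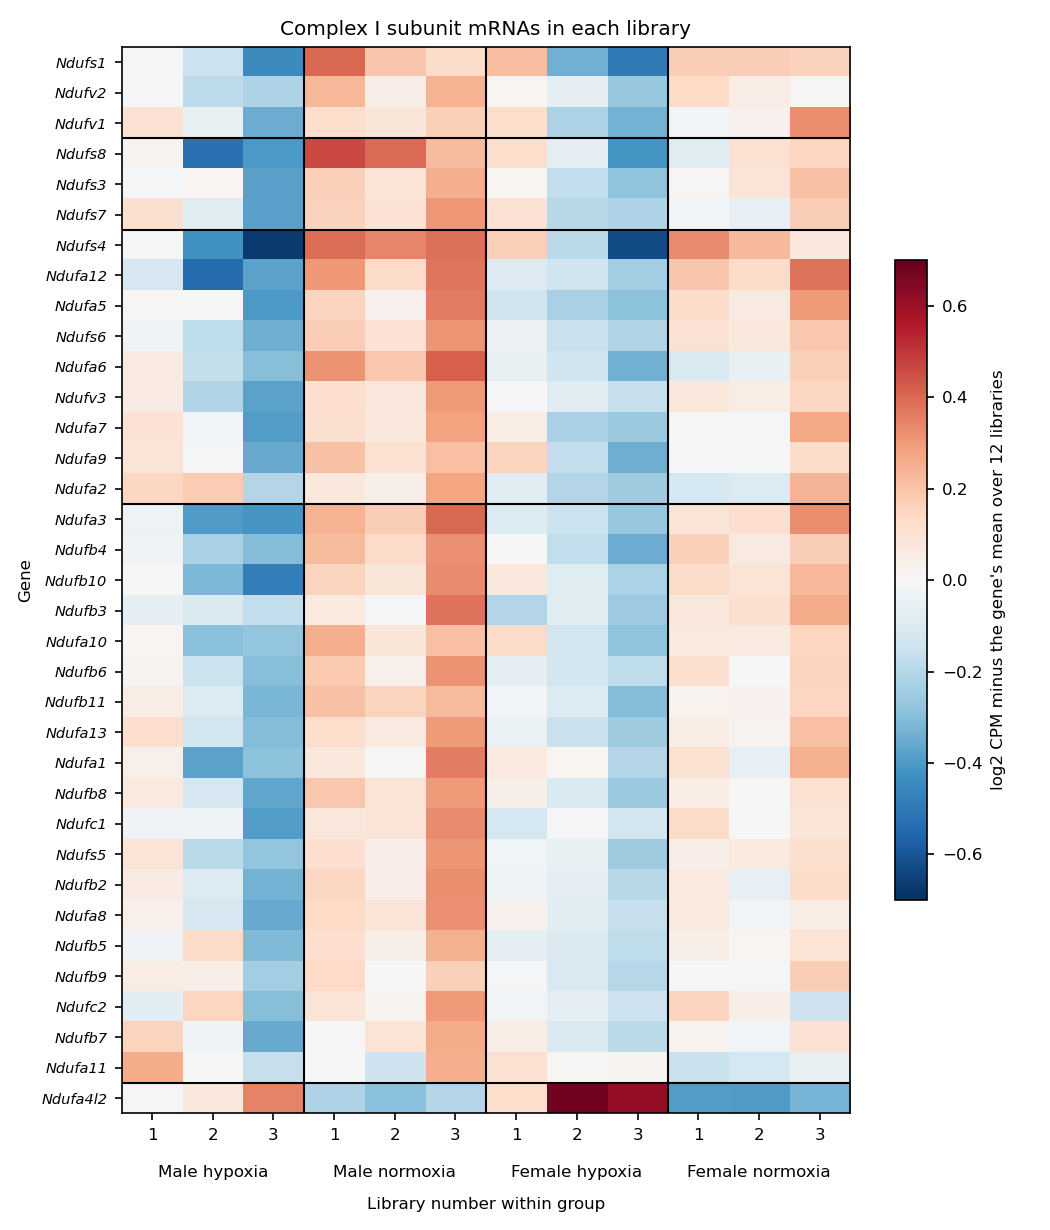
Relative level of 35 of the 36 tested members (rows, grouped by role from core subunits at the top to the Ndufa4 paralogue at the bottom) in each of 12 libraries (columns), as log2 CPM minus the gene's mean over all libraries. Libraries 2 and 3 of both hypoxia groups are mostly blue (low), libraries 1 of the hypoxia groups are near the mean, and Ndufa4l2 runs the other way.

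The libraries of a hypoxia group were not alike. Taken over the tested members, the mean log2 level relative to the 12-library mean was 0.04, -0.13 and -0.32 in hypoxic male libraries 1, 2 and 3. It was 0.016, -0.10 and -0.23 in hypoxic female libraries 1, 2 and 3. Normoxic males ranged from 0.081 to 0.28 and normoxic females from 0.021 to 0.15. Hypoxic male library 1 and hypoxic female library 1 thus lay nearest to normoxia, though below every normoxic library of their sex. Averaged over the sexes, the count of 19 called members became 26 when either of those libraries was left out, and 7 without hypoxic female library 3, 8 without hypoxic male library 3, and 10 without hypoxic male library 2, hypoxic female library 2 or normoxic male library 3. It was 11 without normoxic male library 1 or normoxic female library 2, and 12 without normoxic female library 1. Shares of all genes called in these fits are not given here. With hypoxic male libraries 2 and 3 both left out, 1 member was called lower and 1 higher, Ndufa12 and Ndufa4l2. Those members were called in every alternative fitted, whereas Ndufa3, Ndufb3, Ndufb4, Ndufs4 and Ndufs6 were called in every fit that left out a single library.

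The core subunits at the entry of electrons form the NADH-oxidising tip of the matrix arm, and 2 of these 3 fell, with a median log2 fold change of -0.24. Ndufs1 (ENSMUSG00000025968), the largest core subunit and a carrier of iron-sulfur clusters, fell (log2 fold change -0.39 ± 0.12, adjusted p = 0.0365). It had 674, 612 and 499 CPM in hypoxic males, against 898, 777 and 744 CPM in normoxic males. Hypoxic females had 789, 539 and 483 CPM, against 766, 765 and 759 CPM in normoxic females. The male groups did not overlap, while hypoxic female library 1 lay above all 3 normoxic females. Ndufv2, another iron-sulfur subunit, also fell (log2 fold change -0.24 ± 0.08, adjusted p = 0.0332). Ndufv1 (ENSMUSG00000037916), which binds NADH and the flavin cofactor, had a similar estimate that did not pass (log2 fold change -0.23 ± 0.11, adjusted p = 0.127). Both sexes overlapped between oxygen levels for Ndufv1.

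Among the core subunits that hand electrons to ubiquinone, Ndufs8 and Ndufs3 fell. Ndufs8 (ENSMUSG00000059734), which carries iron-sulfur clusters, had 141, 96.3 and 105 CPM in hypoxic males, against 191, 182 and 162 CPM in normoxic males. The male groups did not overlap. Hypoxic females held 150.4, 132 and 103 CPM, against 131, 149 and 154 CPM in normoxic females, and the groups overlapped. Its averaged log2 fold change was -0.41 ± 0.12 (adjusted p = 0.0237). Ndufs3 fell by less (log2 fold change -0.27 ± 0.09, adjusted p = 0.0422). Ndufs7, the subunit with the last cluster before ubiquinone, missed the threshold (log2 fold change -0.21 ± 0.10, adjusted p = 0.126).

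Accessory subunits of the matrix arm had the lowest median of the roles, -0.31, and 6 of 9 fell. Ndufa12 (ENSMUSG00000020022), which takes the place of an assembly factor late in the building of the enzyme, had 272, 203 and 227 CPM in hypoxic males, against 364, 324 and 382 CPM in normoxic males. Hypoxic females had 277, 267 and 249 CPM, against 338, 322 and 384 CPM in normoxic females. Every hypoxic library lay below every normoxic one of either sex. The averaged level fell to 0.71 of normoxia (log2 fold change -0.50 ± 0.09, adjusted p = 0.00243). It was lower in each alternative fitted, with log2 values from -0.56 to -0.30.

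Ndufs4 (ENSMUSG00000021764), an accessory subunit whose loss in mice is used as a model of Leigh syndrome, had the most negative estimate among the members (log2 fold change -0.56 ± 0.14, adjusted p = 0.0116). It had 32.0, 23.972 and 20.2 CPM in hypoxic males, against 42.3, 40.9 and 42.1 CPM in normoxic males. Hypoxic females had 36.2, 28.3 and 20.9 CPM, against 40.6, 37.8 and 33.9 CPM in normoxic females. Males did not overlap between oxygen levels, and females overlapped through hypoxic library 1. Ndufs6 (ENSMUSG00000021606), a zinc-binding subunit, fell too (log2 fold change -0.32 ± 0.07, adjusted p = 0.00932). It had 325, 293 and 261 CPM in hypoxic males, against 374, 355 and 411 CPM in normoxic males, and 322, 298 and 286 CPM in hypoxic females, against 356, 349 and 378 CPM in normoxic females, without overlap in either sex.

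Ndufa5 fell (log2 fold change -0.35 ± 0.09, adjusted p = 0.0185) with no overlap in either sex, but its adjusted p was 0.050003 without hypoxic female library 3. Ndufa6, a subunit that docks an acyl carrier protein on the matrix arm, and Ndufv3, from the NADH-oxidising tip, completed the 6 that fell (-0.31 and -0.25). Ndufa7, Ndufa9 and Ndufa2 did not pass. Ndufa2, with a thioredoxin-like fold, had the smallest estimate of them (log2 fold change -0.14 ± 0.10, adjusted p = 0.298), and 268, 275 and 210.3 CPM in hypoxic males, against 255, 249 and 294 CPM in normoxic males. Hypoxic male libraries 1 and 2 of Ndufa2 lay inside the normoxic range.

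In the membrane arm 8 of 19 accessory subunits fell and the median was -0.24. Ndufa3 (ENSMUSG00000035674), a small membrane subunit, fell to 0.73 of normoxia (log2 fold change -0.45 ± 0.09, adjusted p = 0.00405). It had 319, 249 and 246 CPM in hypoxic males, against 387, 369 and 432 CPM in normoxic males. Hypoxic females had 306, 295 and 273 CPM, against 349, 355 and 410.0 CPM in normoxic females. The groups did not overlap in either sex, as was also so for Ndufb4, Ndufb3, Ndufb6, Ndufb10 and Ndufb11. Ndufb4 (ENSMUSG00000022820), a subunit of the distal membrane arm, fell (log2 fold change -0.36 ± 0.08, adjusted p = 0.00743), with 189, 165 and 156 CPM in hypoxic males, against 225, 211 and 241 CPM in normoxic males, and 193, 171 and 151 CPM in hypoxic females, against 216, 202 and 218 CPM in normoxic females. Ndufb3, from the same region, fell as well (log2 fold change -0.30 ± 0.08, adjusted p = 0.0161). The other members of this arm that fell were Ndufb10, Ndufa10, Ndufb6, Ndufb11 and Ndufa13, with log2 fold changes from -0.34 to -0.25. The X chromosome carries Ndufb11 and Ndufa1, and Ndufa1 did not pass (log2 fold change -0.25 ± 0.10, adjusted p = 0.0830).

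Ndufa11 (ENSMUSG00000002379), a membrane subunit where complex I meets complex III in supercomplexes, stood apart from the other subunits. It had 335, 280.4 and 249.99 CPM in hypoxic males, against 279, 253 and 333 CPM in normoxic males, and the male groups overlapped. Hypoxic females held 301, 281 and 283 CPM, against 251, 257 and 270.2 CPM in normoxic females, with every hypoxic library above the normoxic ones. The averaged log2 fold change was 0.08 ± 0.09 (adjusted p = 0.548, interval -0.13 to 0.28). Against library totals it was called higher at 0.28, where the median of all genes was 0.20. In TPM it averaged 693 ± 92.4 in hypoxic males and 521 ± 59.9 in normoxic males, and 657 ± 33.6 in hypoxic females and 510 ± 13.4 in normoxic females (SD, n = 3). Ndufb7 (-0.15, adjusted p = 0.249) and Ndufc2 (-0.15, adjusted p = 0.223) were the other membrane members with the largest p.

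**Figure D2:**
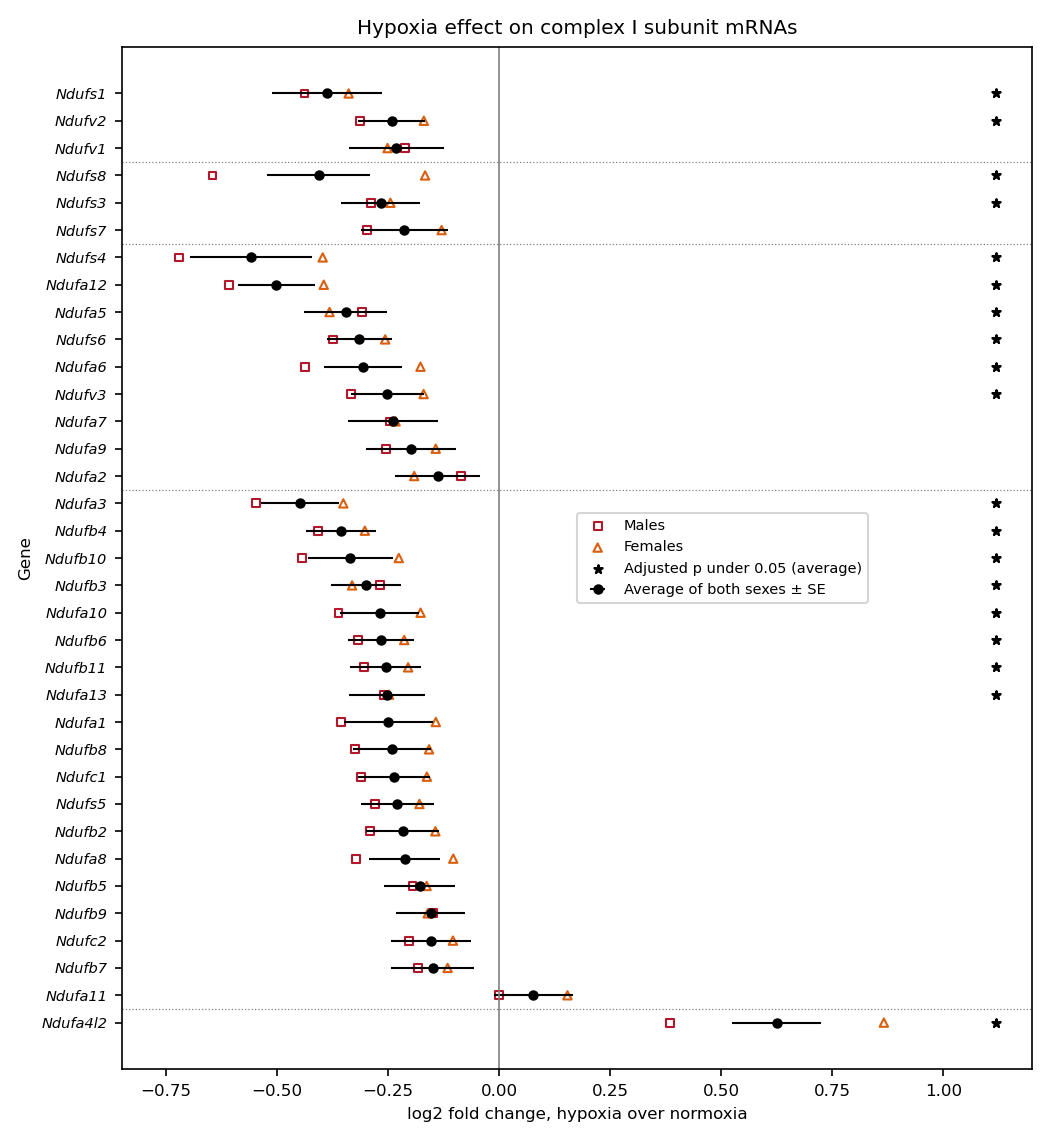
Log2 fold change of hypoxia over normoxia for 35 of the 36 tested members, grouped by role, with filled circles and bars for the average of both sexes ± SE, open squares for males and open triangles for females; stars mark adjusted p under 0.05 in the average. On this TMM scale all points but those of Ndufa11 and Ndufa4l2 lie below 0.

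Ndufa4l2 and Ndufa4 share the family name but not the role. Ndufa4 is now placed in complex IV, and its paralogue Ndufa4l2 is known as a hypoxia-inducible gene whose product was reported to lower complex I activity in cultured cells. Ndufa4l2 (ENSMUSG00000040280) had 22.6, 23.9 and 28.9 CPM in hypoxic males, against 19.6, 18.5 and 19.7 CPM in normoxic males. Hypoxic females held 24.7, 36.4 and 34.8 CPM, against 17.3, 17.3 and 18.1 CPM in normoxic females. Every hypoxic library lay above every normoxic one of either sex, and female libraries 2 and 3 were the highest. It rose 1.54-fold in the average (log2 fold change 0.63 ± 0.10, adjusted p = 0.00169). The level stayed low in all groups: its mean was 22.0 TPM over the 12 libraries, against a median of 475 TPM among the other tested members. Ndufa4 was listed at 0 in 9 of the libraries, with 26 estimated counts in hypoxic female library 3 and 9 and 15 in normoxic male libraries 1 and 3. Its listed near copies Gm14450 and Gm14630 held 2 and 0 counts over all libraries. Between 7.39 and 11.0% of each library's TPM lay outside the table, and whether reads of Ndufa4 are among them was not tested.

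**Figure D3:**
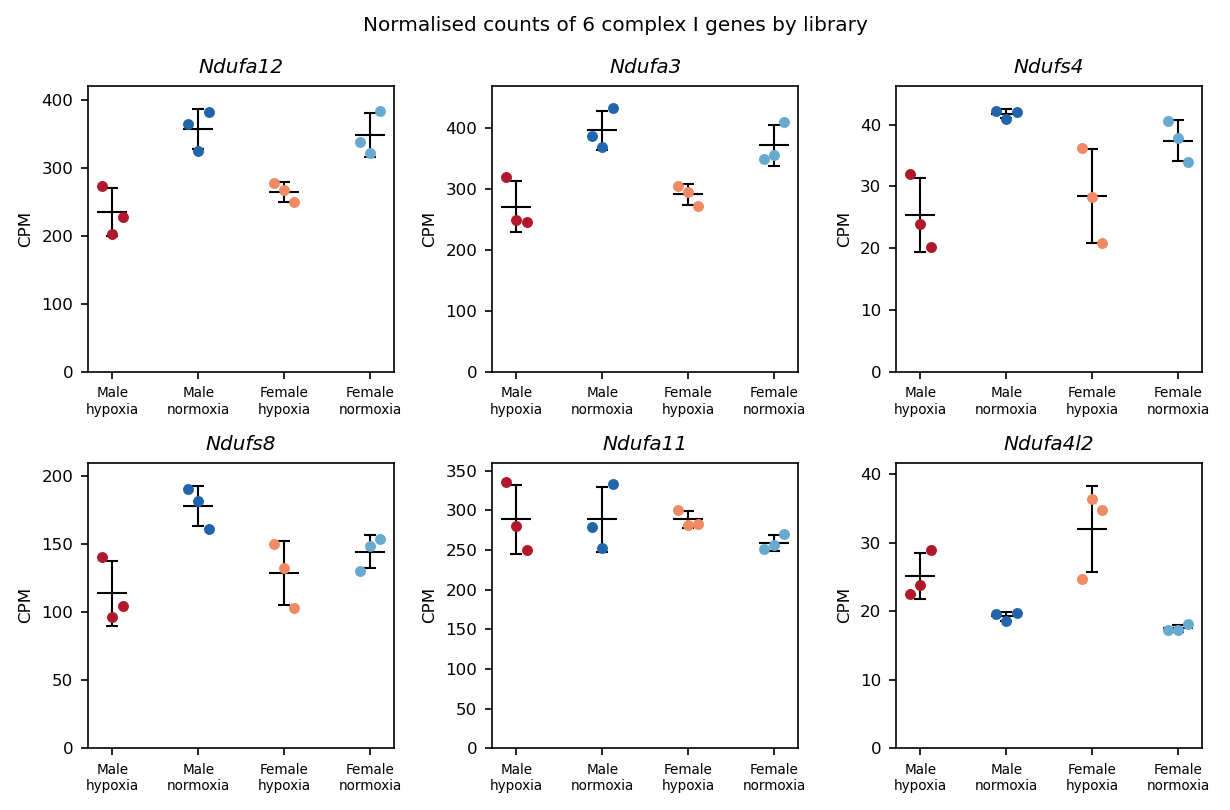
CPM of 6 members in each of the 12 libraries (points), with the group mean and SD (bars, n = 3) and hypoxia left of normoxia for each sex. Ndufa12 and Ndufa3 separate hypoxia from normoxia in both sexes, Ndufs8 and Ndufs4 in males, Ndufa11 overlaps in males and is higher in hypoxic females, and Ndufa4l2 is higher in every hypoxic library.

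Males alone gave 8 called members, all lower, against 15.6% of all genes called in that comparison, 7.10% lower and 8.47% higher. They were Ndufa12 (-0.61), Ndufa3 (-0.55), Ndufs8 (-0.65), Ndufs4 (-0.72), Ndufb4 (-0.41), Ndufs6 (-0.37), Ndufa6 (-0.44) and Ndufb10 (-0.44). The male median was -0.31, against 0.01 over all genes, and 25 members had an unadjusted p under 0.05. Libraries weighed heavily here: 1 member was called without hypoxic male library 2 or without hypoxic male library 3, 16 without hypoxic male library 1, 2 without any single normoxic male library, and 5 and 12 without hypoxic female libraries 2 and 1. With hypoxic male libraries 2 and 3 both left out the male median was -0.15 and no member was called. DESeq2 called 16, all lower. For these alternative fits the shares of all genes called are not given here.

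Females alone gave 1 called member, Ndufa4l2 (log2 fold change 0.87 ± 0.14, adjusted p = 0.0105), and no member lower, against 5.99% of all genes called, 2.02% lower and 3.97% higher. In 7 members the unadjusted p was under 0.05, and DESeq2 called 3 lower, Ndufa12, Ndufa5 and Ndufb3, besides Ndufa4l2. The female median was -0.18, against -0.02 over all genes. The call of Ndufa4l2 was lost without hypoxic female library 2 or without hypoxic female library 3, where its adjusted p was 0.063 and 0.061, and 3 members were called without hypoxic female library 1.

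Counting libraries rather than fitting them, 22 of 36 members were lower in every hypoxic than in every normoxic male library, as were 19.8% of all genes. In females 14 were lower without overlap, with 12.7% among all genes. Both sexes met this for 11 members, Ndufa12, Ndufa3, Ndufa5, Ndufb3, Ndufb4, Ndufb6, Ndufb10, Ndufb11, Ndufc1, Ndufs6 and Ndufv3, and for 6.92% of all genes. In the other direction 1 member in males and 2 in females were higher without overlap, against 21.5% and 13.2% of all genes, and Ndufa4l2 was the one in both, against 7.79%.

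No member differed between the sexes in its response by edgeR's test, nor by DESeq2, and 1 of the 13960 genes did (0.00716%). Among the 34 members with negative estimates in both sexes, the male one was the lower for 29. The difference of the effects was negative for 5 of 36 members with TMM factors and for 13 with library totals. Of the 36, 1 had an unadjusted p under 0.05 for the difference of the effects, female minus male. That was Ndufa4l2 (log2 fold change 0.48 ± 0.20, adjusted p = 0.728, interval 0.02 to 0.94). Ndufs8 came next (log2 fold change 0.48 ± 0.23, adjusted p = 0.730, interval -0.06 to 1.01), with -0.17 in females and -0.65 in males. Ndufa6 and Ndufa8 followed at 0.26 (interval -0.15 to 0.67) and 0.22 (interval -0.15 to 0.59). These intervals do not exclude differences as large as the averaged effects themselves.

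Females and males at the same oxygen level showed no called member either, by edgeR or DESeq2, with 1 member at an unadjusted p under 0.05 in each oxygen level, against 0.0716% of all genes called in normoxia (0.0287% lower and 0.0430% higher) and 0.150% in hypoxia (0.115% lower and 0.0358% higher). In normoxia all 36 estimates were lower in females with TMM factors, and 31 with library totals, with a median of -0.09 against 0.00 over all genes, and Ndufa6 had the smallest p (log2 fold change -0.30 ± 0.12, adjusted p = 0.676). Ndufa6 had 209, 217 and 253 CPM in normoxic females, against 279.6, 256 and 301 CPM in normoxic males, without overlap. Ndufs8 (-0.30) and Ndufa8 (-0.15) followed. In hypoxia the smallest p values belonged to Ndufa4l2 (log2 fold change 0.35 ± 0.14, adjusted p = 0.449), Ndufa2 (-0.22) and Ndufa12 (0.18).

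Subunits that sit in the enzyme once were not equal in mRNA level. On the length-corrected TPM scale 31 of the 35 tested members other than Ndufa4l2 lay between 100 and 1100 TPM, with a median of 475 TPM. The highest were Ndufa3 at 2053 ± 157 TPM and Ndufa5 at 1727 ± 299 TPM (SD over the 12 libraries). Their effective lengths were very short, at most 105 and 136 bases, so a small error in length moves these values much. Ndufb8 (1276 ± 81.7 TPM) and Ndufb9 (1001 ± 115 TPM) came next, both below the first pair by more than the SDs of the genes compared. At the low end stood Ndufs4 at 14.0 ± 2.10 TPM and Ndufs8 at 118 ± 12.9 TPM, with Ndufa4l2 at 22.0 ± 8.55 TPM between them. Ndufs4 was thus 147 times below Ndufa3, and the next lowest subunit, Ndufs8, 17.4 times. The value of Ndufs4 rests on the effective length and the estimated counts assigned to it, and why it lies so far below the other subunits was not tested. From Ndufs3 down to Ndufs7 in the order, each gene differed from the next by less than the SD of either.

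**Figure D4:**
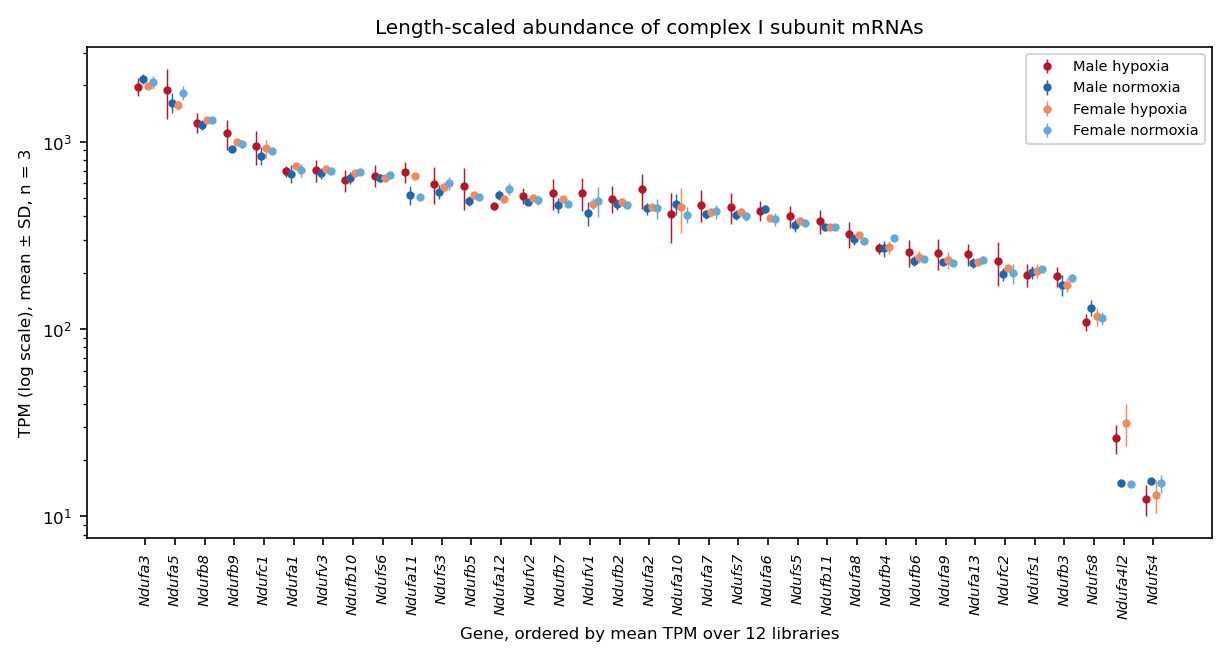
Deposited TPM (log axis) of 35 of the 36 tested members, ordered by the mean over 12 libraries, as mean ± SD of 3 libraries in each group. The groups lie close together within a gene except for Ndufa4l2 and, less so, Ndufa11, which are higher in both hypoxia groups. Most other members also have a higher mean in hypoxic than in normoxic males, such as Ndufb9 (1111 ± 201 against 921 ± 21.0 TPM). Ndufa12 is among those that are lower (454 ± 19.2 against 521 ± 30.8 TPM), and in females the direction is mixed. The spread between genes is far wider than that between groups.

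The largest shift in effective length among members was that of Ndufa10, a membrane arm subunit with a kinase-like fold, from 674 to 1349 bases over the libraries, with the longest in hypoxic male library 2. Its fall (log2 fold change -0.27 ± 0.09, adjusted p = 0.0409) was not called once lengths entered the model (log2 fold change -0.31, adjusted p = 0.325). Near-identical copies can share reads with a member. Ndufb4c matches Ndufb4 at 100% over 390 bases and held 7431 estimated counts, 18.5% of those of Ndufb4, with 24 in hypoxic male library 2 and 463 to 928 in the other libraries. With the copy's counts added, Ndufb4 fell by a similar amount (-0.41, adjusted p = 0.00578). For Ndufs5 the copy BC002163 held 4.84% of the member's count, and adding it brought Ndufs5 past the threshold (-0.23, adjusted p = 0.0574 without the copy and 0.0418 with it). For the other tested members no copy found reached 0.1% of the member's count.

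Promoter sequences were examined because the levels of most members varied together across libraries. RefSeq windows on GRCm38.p6, from 250 bases before to 50 after the start, were at hand for 32 of the 37 members. The core of the site of nuclear respiratory factor 1, a regulator of nuclear genes for the respiratory chain, was searched as CGCANGCG on both strands. It occurred in 10 of 32 members (31.2%), against 8.4% of 27025 promoters. Of the 10, which were all tested, 6 fell in the averaged comparison, as did 11 of the 21 other tested members with a window. The YY1 motif AAGATGG was in 21.9% against 6.5% of all, the ERR half-site AAGGTCA in 9.4% against 4.7%, the ETS motif CCGGAAG in 12.5% against 9.1%, and the CRE half-site TGACGTC in 12.5% against 3.3%. The hypoxia response element core ACGTG was in 18.8%, against 19.7%. Median GC content was 59.0% in the members' windows and 52.7% in all, and its part in these shares was not tested. Both strands were searched for each motif. The 4 windows printed are those of 3 members that fell and carry the core, and of Ndufa11, which carries it too and was not called. Capitals mark matches to the NRF1, ERR, YY1 and ETS motifs on either strand, and the rest is in lower case, written 5′ to 3′ in the direction of transcription.
Ndufa12, chr10:94198785-94199084, plus strand: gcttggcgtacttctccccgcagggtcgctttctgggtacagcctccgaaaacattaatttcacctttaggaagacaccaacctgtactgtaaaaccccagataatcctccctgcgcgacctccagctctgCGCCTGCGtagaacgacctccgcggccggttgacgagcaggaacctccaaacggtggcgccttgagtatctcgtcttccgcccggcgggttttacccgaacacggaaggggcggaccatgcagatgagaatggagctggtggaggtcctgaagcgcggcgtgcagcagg
Ndufs6, chr13:73328433-73328732, minus strand: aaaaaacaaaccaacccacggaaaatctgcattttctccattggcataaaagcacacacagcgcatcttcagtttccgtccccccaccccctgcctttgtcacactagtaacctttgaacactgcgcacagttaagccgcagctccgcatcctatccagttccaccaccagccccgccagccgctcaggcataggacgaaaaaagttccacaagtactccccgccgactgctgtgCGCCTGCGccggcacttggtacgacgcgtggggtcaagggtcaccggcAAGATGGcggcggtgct
Ndufb4, chr16:37654319-37654618, minus strand: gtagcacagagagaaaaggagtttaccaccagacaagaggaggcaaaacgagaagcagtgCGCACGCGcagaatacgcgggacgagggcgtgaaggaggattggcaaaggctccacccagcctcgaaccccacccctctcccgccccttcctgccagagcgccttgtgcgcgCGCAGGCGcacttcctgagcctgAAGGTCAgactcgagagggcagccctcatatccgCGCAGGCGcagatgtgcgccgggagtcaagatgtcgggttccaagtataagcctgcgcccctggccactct
Ndufa11, chr17:56717512-56717811, plus strand: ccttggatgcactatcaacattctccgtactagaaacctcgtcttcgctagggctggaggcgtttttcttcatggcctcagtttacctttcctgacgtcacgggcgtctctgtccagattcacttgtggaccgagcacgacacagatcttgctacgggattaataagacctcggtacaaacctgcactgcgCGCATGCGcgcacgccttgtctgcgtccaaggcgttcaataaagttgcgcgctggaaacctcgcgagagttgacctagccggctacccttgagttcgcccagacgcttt
Ndufb4 carries the core 3 times and the ERR half-site once, Ndufs6 the core and the YY1 motif, and Ndufa12 and Ndufa11 the core alone among the motifs in capitals. Ndufa11 also holds the CRE half-site on both strands, which overlap. A match describes these letters only.

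The members varied together across libraries. Pearson's r of each member's log2 CPM with the mean of the other members over the 12 libraries ran from 0.64 for Ndufc2 to 0.99 for Ndufb8, outside of Ndufa11 (0.33) and Ndufa4l2 (-0.76). These points share their library, its scaling and the oxygen groups. The 5 other genes most like the members' mean, of the 8527 whose log2 CPM averaged 3 or more, were Ndufab1 (r = 0.984), Atp5j2 (0.983), Uqcr11 (0.981), 1190007I07Rik (0.978) and Cox8b (0.976).

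Other parts of the same enzyme and its assembly were also lower. Ndufab1, the mitochondrial acyl carrier protein that is also a complex I subunit, fell (log2 fold change -0.30 ± 0.08, adjusted p = 0.0185). Its near-identical copy Gm4459 (99.8%) held 38367 estimated counts beside 46548 for Ndufab1, so the split between them is uncertain. Of 18 assembly factors 12 fell and none rose, with a median of -0.36, which was -0.16 with 5 lower when library totals were used. Timmdc1, which helps build the membrane arm, had the smallest p (log2 fold change -0.44 ± 0.06, adjusted p = 0.000632), followed by Nubpl, which inserts iron-sulfur clusters (-0.64 ± 0.09, adjusted p = 0.000908), Ndufaf6 (-0.56) and Tmem126a (-0.39). In males 11 of the factors fell (median -0.47) and in females 1, Timmdc1 (median -0.27). Their summed level was 578, 530.2 and 489 CPM in hypoxic males, against 703, 679 and 750.2 CPM in normoxic males. In females it was 613, 538 and 527 CPM in hypoxia, against 677, 683 and 640.5 CPM in normoxia. Neither sex overlapped.

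The 7 mitochondrially encoded ND mRNAs, the partners of the nuclear subunits in the membrane arm, had a median of -0.51, or -0.32 with 3 lower when library totals were used. Of them mt-Nd3 (-0.63), mt-Nd1 (-0.62), mt-Nd6 (-0.42) and mt-Nd2 (-0.62) fell, with adjusted p between 0.00278 and 0.0109. The same 4 fell in males and none did in females, with medians of -0.72 and -0.32. DESeq2 called all 7 lower in the average and in males, and 1 in females. Their summed level was 57193, 29627 and 57956 CPM in hypoxic males, against 88799.9, 79427 and 86526 CPM in normoxic males. In females it was 63147, 57610.4 and 52013 CPM in hypoxia, against 75843, 71414 and 69227 CPM in normoxia. The lowest value, in hypoxic male library 2, did not go with the lowest level of the nuclear members, which was in hypoxic male library 3.

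Nuclear genes of the other complexes had medians close to that of complex I. In complex II, 1 of 4 fell (median -0.30, Sdhc at -0.35). In complex III, 4 of 9 fell (-0.24), Uqcrfs1, Uqcrc1, Uqcr11 and Uqcrc2. In complex IV, 2 of 11 fell (-0.19), with Cox7a1, the heart and muscle isoform, at -0.67 ± 0.11 (adjusted p = 0.00171) and Cox8b at -0.34. In ATP synthase, 2 of 15 fell (-0.22), Atp5k and Atp5j. None of these 39 genes was called higher. With library totals the medians were -0.10, -0.040, 0.0095 and -0.015 for complexes II, III and IV and ATP synthase, so that of complex IV changed sign, and 1 of the 39 genes, in complex IV, was called lower. With DESeq2, 3 of 4 fell in complex II, 5 of 9 in complex III, 2 of 11 in complex IV and 7 of 15 in ATP synthase. With upper quartile factors these counts were 3, 5, 2 and 6.

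**Figure D5:**
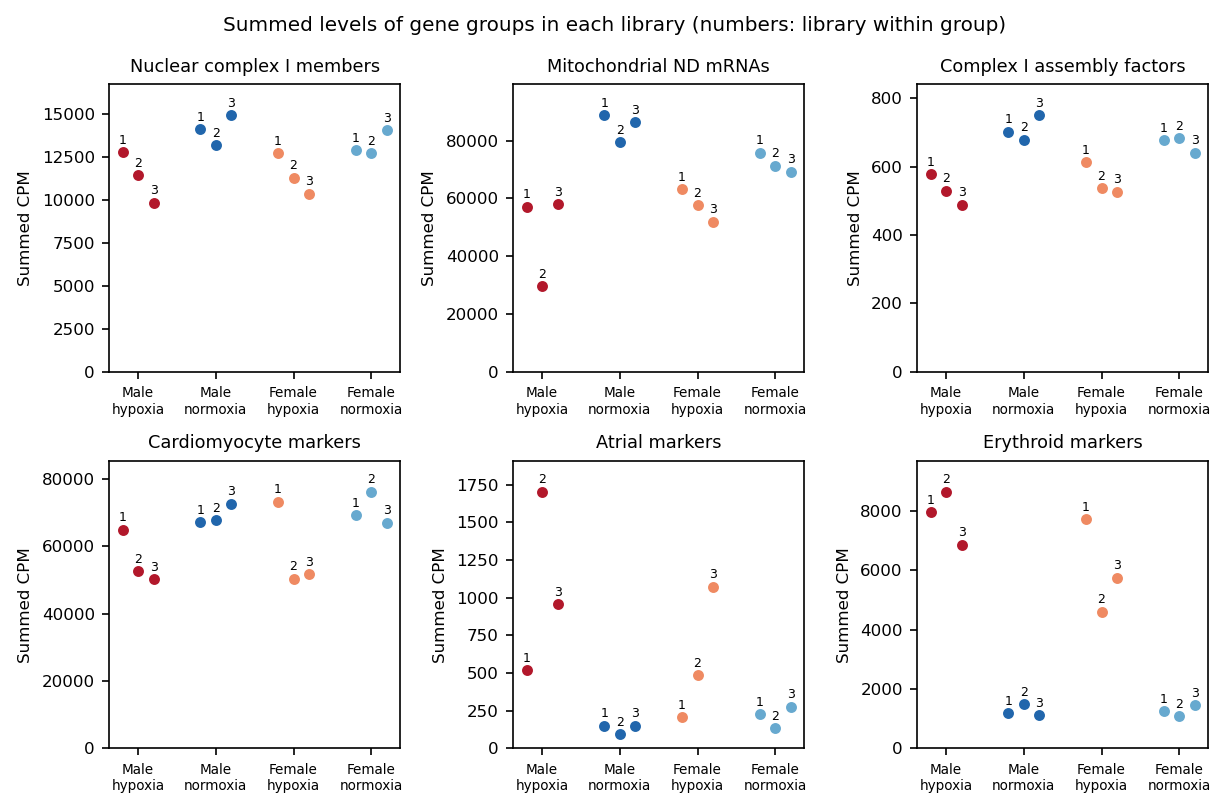
Summed CPM of 6 gene groups in each library (points, numbered within their group), with hypoxia left of normoxia for each sex. The ND mRNAs and assembly factors are lower in every hypoxic library than in the normoxic ones of the same sex. So are the nuclear members apart from hypoxic female library 1, while erythroid markers are higher in every hypoxic library. The atrial sum, mostly Nppa, is higher in the hypoxic males and in hypoxic female libraries 2 and 3. For that sum hypoxic female library 1 lies within the normoxic female range.

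Markers of heart muscle and of other cells moved in the same libraries. All 10 cardiomyocyte markers were tested, and 3 were lower and none higher, with a median of -0.24, or -0.044 with 2 lower when library totals were used. Their summed level was 64936, 52645 and 50220.4 CPM in hypoxic males, against 67248 to 72697 CPM in normoxic males. In females it was 73297, 50404 and 51701 CPM in hypoxia, against 67066 to 76224 CPM in normoxia. As with the members, hypoxic libraries 1 of both sexes were the highest of their groups. Of 4 ventricular markers 1 was lower. Of the 7 atrial markers 5 were tested and 4 were higher, and none was called in females. Their sums were 519, 1703 and 957 CPM in hypoxic males, against 95.4 to 151 CPM in normoxic males. In females they were 206, 487 and 1072 CPM in hypoxia, against 133 to 276 CPM in normoxia. Nppa (67.8 to 1512 CPM) made up most of these sums, no other atrial marker passed 91.8 CPM, and Bmp10 was at or near 0 in all libraries. The mean log2 CPM of the tested atrial markers was 3.43, 5.99 and 5.75 in hypoxic males, against 2.25 to 2.52 in normoxic males. For females it was 2.79, 3.26 and 3.71 in hypoxia, against 2.59 to 3.05 in normoxia. Of 7 erythroid markers listed 5 were tested and all 5 were higher, with sums of 6860.0 to 8638 CPM in hypoxic males, against 1123 to 1491 CPM in normoxic males, and 4600.0 to 7711 CPM in hypoxic females, against 1094 to 1445 CPM in normoxic females. Among markers of fibroblasts 5 of 7, of endothelium 5 of 6 and of macrophages 3 of 6 were higher and none lower. Adipocyte markers summed to 30.9 and 25.1 CPM in hypoxic male libraries 2 and 3, against at most 4.19 CPM in the other libraries, with Plin1 at 0 and Lep at or near 0 throughout. Of 7 skeletal muscle markers 4 were tested and 1 was lower (with library totals none was lower and 1 higher). In males alone 1 skeletal muscle marker was lower and 1 higher. That list shares Ckm (1091 to 1768 CPM) with the cardiomyocyte list. Of 4 lung markers 1 was tested and was higher (Ager), and of 4 brown adipocyte markers 2 were tested and 1 was lower. Myh2, Sftpc and Ucp1 were at or near 0. The part of cell composition in the lower complex I levels was not tested.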

How the data were processed

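Ventricular tissue of C57BL/6 mice was profiled by strand-specific mRNA sequencing in 12 libraries from 4 groups. Salmon and FastQC are the tools, and GRCm39 the build, that the submitters' processing notes name, and their versions, the annotation release and the strand setting are not given in the sources used here. Every gene has, per the file headers, for each library a deposited estimated count, a TPM abundance and an average effective length, with no scaling of counts from abundance. No sample lacked a column and 0 columns belonged to no sample. The TPM values deposited by the authors sum to between 889905 and 926060 per library and were used only to describe levels.

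Estimated counts were rounded to whole numbers. Symbols came from a GENCODE annotation of another build (GRCm38) and were found for 99.3% of 39210 genes. Pseudogene status, chromosomes and the transcripts searched for copies came from the same annotation. Genes low in reads were removed with filterByExpr, which left 13960. edgeR 4.0.16 in R 4.3.3 fitted 4 group means to all 12 libraries with TMM factors and 8 residual degrees of freedom, and glmQLFTest gave two-sided tests. Each standard error is the absolute log2 fold change divided by the square root of F, and intervals are 95% intervals. The script was tested on simulated data. Near-identical copies were taken from a BLAST search of the annotation's transcripts (at least 90% identity over 80% of the copy and 150 bases). Relative levels and correlations used log2 CPM with a prior count of 2.

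The members, gene lists and rules were chosen with earlier results of these data known. One tested member is not reported here by name, though counts and medians over all members include it. Named were the other core subunits, Ndufa4 and its paralogue, the 8 members with the smallest and the 4 with the largest averaged p, the 4 highest and 4 lowest in TPM, the 4 with the smallest interaction p, 3 per sex contrast, the one with the largest change in length, and up to 4 genes of each other list; further members are named to complete a count and were chosen after their values were seen. Alternatives were RLE factors, DESeq2 1.42.0, no filter or at least 50 counts in 3 libraries, length offsets, a replicate block, a table without mitochondrially encoded and globin genes, each library left out, hypoxic male libraries 2 and 3 (and normoxic female library 3) left out, and only the compared libraries. Upper quartile factors, library totals and the addition of copies were added after the data were seen.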

Additional observations from a re-analysis of the deposited data

How the results depend on the processing

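The count of 19 called members in the averaged comparison became 2 with hypoxic male libraries 2 and 3 left out, 3 with normoxic female library 3 left out as well, and 5 with library totals in place of scaling factors. In males the 8 calls became 4 with length offsets, 4 with library totals, 0 in either fit without hypoxic male libraries 2 and 3, and 16 with DESeq2. In females the single call became 0 with only the compared libraries and 4 with DESeq2. The lone hypoxic male library of the reduced fits was taken to have the spread of the remaining groups. The median was -0.049 (averaged), -0.055 (males) and -0.027 (females) with library totals, and -0.15 in males in both fits without hypoxic male libraries 2 and 3. Leaving out single libraries gave 7 to 26 calls in the average, 1 to 16 in males and 0 to 3 in females, and medians from -0.30 to -0.21, -0.40 to -0.21 and -0.25 to -0.13. The shares of all genes called are not given for any alternative fit. Whether the members' counts moved with those shares was not tested. The sex difference of the response and both sex comparisons stayed at 0 calls in every alternative. Of the members named by rule, 4 changed sign with library totals in the average without being called: Ndufa2 (0.069), Ndufb7 (0.052), Ndufc2 (0.053) and Ndufb9 (0.051). Over all 36 tested members the negative estimates went from 34 to 28, so members outside that rule changed sign too. The library totals setting changes the scale alone. The cause of the other changes was not tested. The replicate numbers do not pair the samples by the labels, and the correlations of same-numbered libraries ran from -0.045 to 0.186, with 8 of 12 libraries closest to their own number. With the replicate block the averaged comparison gave 18 calls (17 lower, 1 higher), males 9 and females 1. Depth limits mainly Ndufs4 and Ndufa4l2, which had at least 268 estimated counts per library, and Ndufa4, which could not be tested.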
